A study of Cricetiscus sungorus with 41 samples.

Results

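The genes described here are 31 human gene symbols in a table of blood transcripts of the Djungarian hamster, 22 that mark B cells and 9 that belong to antigen presentation by MHC class II. They were chosen by symbol, as known markers of B cells and of MHC class II, with earlier results of these data known. All 31 symbols were among the 20220 of the table, and 23 of them had a count, 21 of the B cell genes and 2 of the MHC class II genes.

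Blood was taken from wild-type hamsters acclimated to a short photoperiod, in which spontaneous daily torpor had been seen in all 36 animals, torpor being a body temperature under 32 °C for at least 30 min. Torpor was entered on the sampling day by 18 animals (HT, for hypothermic) and not by the other 18 (NT, for normothermic), at an age of 32 ± 4 weeks. HT animals numbered 5 at zeitgeber time 1 (ZT01, torpor entry), 5 at ZT04 (nadir), 4 at ZT07 (arousal) and 4 at ZT16 (after torpor), and NT animals numbered 6, 4, 4 and 4 at those times. A group of 5 Control animals had never entered torpor, and their labels gave neither a time nor a sex. Each library came from 1 animal. Males and females among HT animals numbered 2 and 3 at ZT01, 2 and 3 at ZT04, 1 and 3 at ZT07, and 0 and 4 at ZT16. Among NT animals they numbered 4 and 2 at ZT01, 4 and 0 at ZT04, 1 and 3 at ZT07, and 4 and 0 at ZT16, so that sex and torpor cannot be told apart at ZT16.

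B cells are the lymphocytes that make antibodies. Each carries a B cell receptor, a membrane immunoglobulin joined to the signalling chains CD79A and CD79B, and a mature naive B cell carries both IgM and IgD, which come from 1 primary transcript by alternative splicing. B cells also take up antigen and present its peptides on MHC class II, a pair of chains that is loaded in endosomes with the help of the invariant chain CD74 and is switched on by the coactivator CIITA. Monocytes and dendritic cells present on MHC class II as well, so CD74 and CIITA are not restricted to B cells. In hibernating rodents lymphocytes are known to leave the blood during torpor and to return on rewarming. In whole blood, fewer B cells and less RNA per B cell cannot be told apart.

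Library totals ran from 50153600 to 71662267 counts, of which haemoglobin genes took 73.7 to 93.8%. The other genes shared 3291472 to 14562786 counts, and the 31 symbols took 0.297 to 0.914% of these. Levels are given as counts scaled to library size by the TMM method (CPM, haemoglobin included), and since transcript lengths are not known here, levels are compared between animals and not between genes. Counts of the Y-linked gene UTY went against the labelled sex of HT ZT07 animal 1 (male, 8 counts) and animal 2 (female, 52 counts), where the other 17 males had 15 to 71 and the other 17 females 0 to 8. The labels were used as given. For members that passed at ZT07, and for genes working with them that passed there, results are also given without both animals.

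The defining markers of B cells were present in all libraries. CD79A had 723 to 9397 counts per library, CD79B 476 to 5881, MS4A1 (CD20, a membrane protein of mature B cells) 238 to 3392 and IGHM (the constant region of IgM) 2529 to 35271. CD72, an inhibitory coreceptor, was the 1 B cell gene listed at 0 in all 41 libraries. The rarest of the others were VPREB3, a gene of B cell precursors, with 1 to 77 counts, TNFRSF13C (the BAFF receptor) with 3 to 194 and TNFRSF13B (TACI, a receptor for BAFF and APRIL) with 6 to 186.

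The MHC class II label could be checked only in part. HLA-DRA, HLA-DPA1 and HLA-DQA1, the alpha chains of the presenting molecules, were listed at 0 in all 41 libraries, as were HLA-DMA, HLA-DMB, HLA-DOA and HLA-DOB, whose products govern peptide loading. All 19 HLA symbols of the table, those of class I included, were listed at 0. B2M, the light chain of class I, had 1874 to 10474 counts, and the peptide transporter TAP1 had 146 to 2770. Symbols were given to assembled contigs by their best human protein match, so a symbol to which no contig was assigned carries no count. The 0 values are therefore given as listed, and no statement on hamster MHC class II chains is drawn from them. What remained of the list was CD74, with 4636 to 45498 counts, and CIITA, with 214 to 3764. All 23 symbols with a count passed the filter on low counts in every comparison.

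At ZT07 FCMR, IGHD and BANK1 fell in HT animals, whereas the receptor chains CD79A and CD79B, IGHM, CD74 and CIITA did not pass the test. FCMR encodes the Fc receptor for IgM. It stood at 12.9, 6.68, 12.8 and 9.65 CPM in HT ZT07 animals, against 22.1, 24.4, 27.3 and 24.5 CPM in NT ZT07 animals. Every HT animal lay below every NT animal, and the level was 0.423-fold that of NT (log2 fold change -1.24 ± 0.21 SE, edgeR adjusted p = 0.00778).

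IGHD, the constant region of IgD, was read at 2.24, 1.31, 3.84 and 1.29 CPM in HT ZT07 animals, against 8.35, 6.01, 6.62 and 8.41 CPM in NT ZT07 animals. The groups did not overlap. IGHD reached 0.291-fold the NT level (log2 fold change -1.78 ± 0.32 SE, edgeR adjusted p = 0.00992).

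BANK1, a scaffold that couples the B cell receptor to calcium release, had 2.99, 2.64, 5.05 and 2.86 CPM in HT ZT07 animals, against 5.82, 7.85, 9.65 and 5.65 CPM in NT ZT07 animals. These groups were also apart, though HT animal 3 came close to the lowest NT animal. BANK1 stood at 0.462-fold of NT (log2 fold change -1.12 ± 0.24 SE, edgeR adjusted p = 0.0186).

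**Figure D1:**
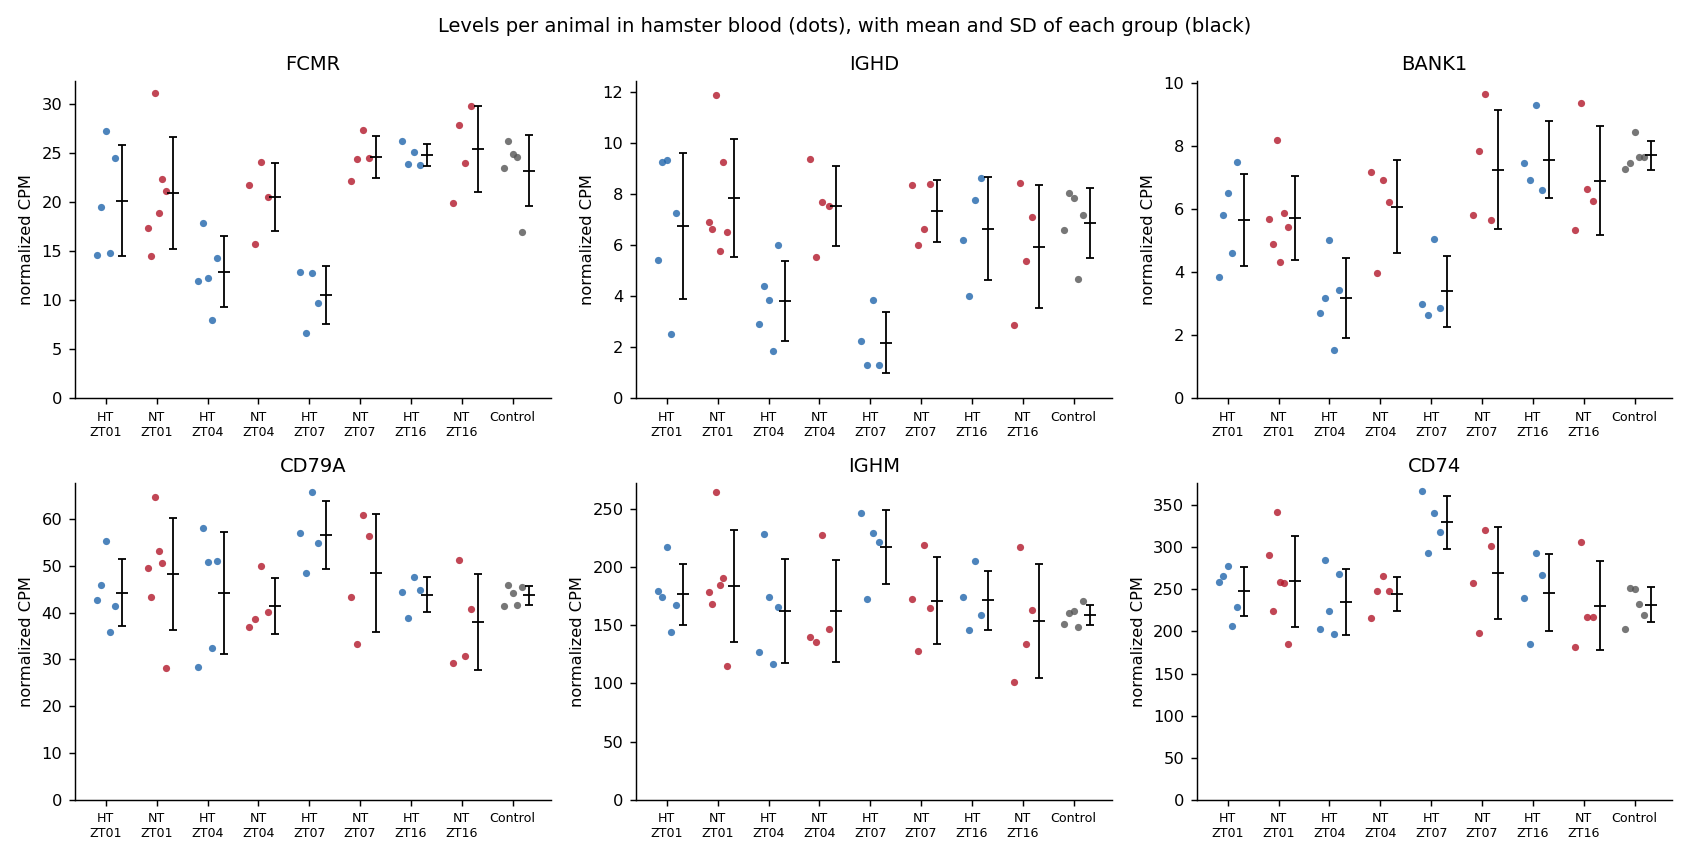
Levels of 6 genes in normalized CPM (y axis) in the 9 groups of animals (x axis, HT left of NT at each zeitgeber time, Control last). Each dot is 1 animal and the black mark is the mean with its SD; FCMR, IGHD and BANK1 were lower in all 4 HT ZT07 animals than in any NT ZT07 animal, while CD79A, IGHM and CD74 overlapped between the groups.

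At ZT07, 10.4% of the 10787 genes tested passed the threshold, 4.65% as lower, and 8.3% were lower without overlap between the groups. Of the 23 members 6 had an unadjusted p under 0.05, beside 27.6% of all genes. With 3 of 23 passing, the list as a whole was near that background, and the result is one on 3 single genes. The median log2 fold change of the 21 B cell genes was 0.154 (13 above 0 and 8 below), beside -0.035 over all genes.

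Without HT animals 1 and 2, which leaves 2 HT against 4 NT animals, none of the 3 passed the edgeR test, and over all genes 37 passed in place of 1119. The log2 fold changes were then -1.14 for FCMR (adjusted p = 0.0635), -1.52 for IGHD (0.119) and -0.88 for BANK1 (0.192). With each animal left out singly, FCMR (adjusted p at most 0.0269) and IGHD (at most 0.0313) passed in all 8 fits. BANK1 did not pass without HT animal 2 (0.0603), HT animal 4 (0.0545) or NT animal 3 (0.0508).

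Other members at ZT07 lay on both sides of 0. CD79A had 57.1, 48.5, 65.9 and 54.8 CPM in HT ZT07 animals, against 43.4, 33.3, 60.8 and 56.4 CPM in NT ZT07 animals. The groups overlapped, and the log2 fold change was 0.21 (95% interval -0.17 to 0.59). For CD79B it was 0.32 (-0.08 to 0.73) and for IGHM 0.33 (-0.03 to 0.69), so that a fall of the size seen in FCMR lay outside these intervals. The transcription factors of B cell identity had positive values, 0.73 ± 0.24 for EBF1 (edgeR adjusted p = 0.0747, past the threshold with DESeq2) and 0.63 ± 0.24 for PAX5 (0.115). EBF1 itself had 7.49, 5.36, 8.61 and 7.32 CPM in HT ZT07 animals, against 6.04, 2.85, 4.89 and 3.41 CPM in NT ZT07 animals, with an overlap of HT animal 2 and NT animal 1. The complement receptor CR2 had -0.56 ± 0.25 (0.168), and MS4A1 had -0.37 ± 0.28 (0.42).

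PAX5 was read at 17.7, 16.1, 17.4 and 13.9 CPM in HT ZT07 animals, against 7.17, 7.06, 15.2 and 12.2 CPM in NT ZT07 animals. Only HT animal 4 lay within the range of the NT animals. MS4A1 stood at 14.7, 8.60, 23.4 and 12.8 CPM in HT ZT07 animals, against 21.5, 14.7, 23.5 and 16.5 CPM in NT ZT07 animals. Here the groups overlapped, with HT animal 3 at the top of the NT range.

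The other B cell genes overlapped between HT and NT animals at ZT07 and had adjusted p values of at least 0.293 with edgeR. On the negative side were FCRLA, an intracellular relative of the Fc receptors (-0.61 ± 0.35), POU2AF1, a coactivator of immunoglobulin genes (-0.44 ± 0.28), and FCER2, the low-affinity IgE receptor (-0.38 ± 0.26). On the positive side were VPREB3 (0.41 ± 0.60), TNFRSF13C (0.33 ± 0.29), the inhibitory lectin CD22 (0.32 ± 0.22), the Src-family kinase BLK (0.29 ± 0.23), the Fc receptor-like protein FCRL1 (0.24 ± 0.23), the Ets-family factor SPIB (0.15 ± 0.19), the adaptor BLNK (0.09 ± 0.23) and TNFRSF13B (0.06 ± 0.23). HT ZT07 animal 3 held the highest level among all 41 animals of CD79A (65.9 CPM), CD22 (29.4 CPM), BLK (2.85 CPM), FCRL1 (16.4 CPM) and CIITA (26.9 CPM).

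Of the MHC class II genes, CD74 had 367, 293, 341 and 318 CPM in HT ZT07 animals, against 257, 198, 320 and 302 CPM in NT ZT07 animals. The ranges overlapped (log2 fold change 0.27 ± 0.17 SE, edgeR adjusted p = 0.324). CIITA had 20.7, 17.7, 26.9 and 15.3 CPM in HT ZT07 animals, against 15.9, 14.0, 18.5 and 15.2 CPM in NT ZT07 animals, and its value of 0.33 ± 0.19 did not pass either (0.281).

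**Figure D2:**
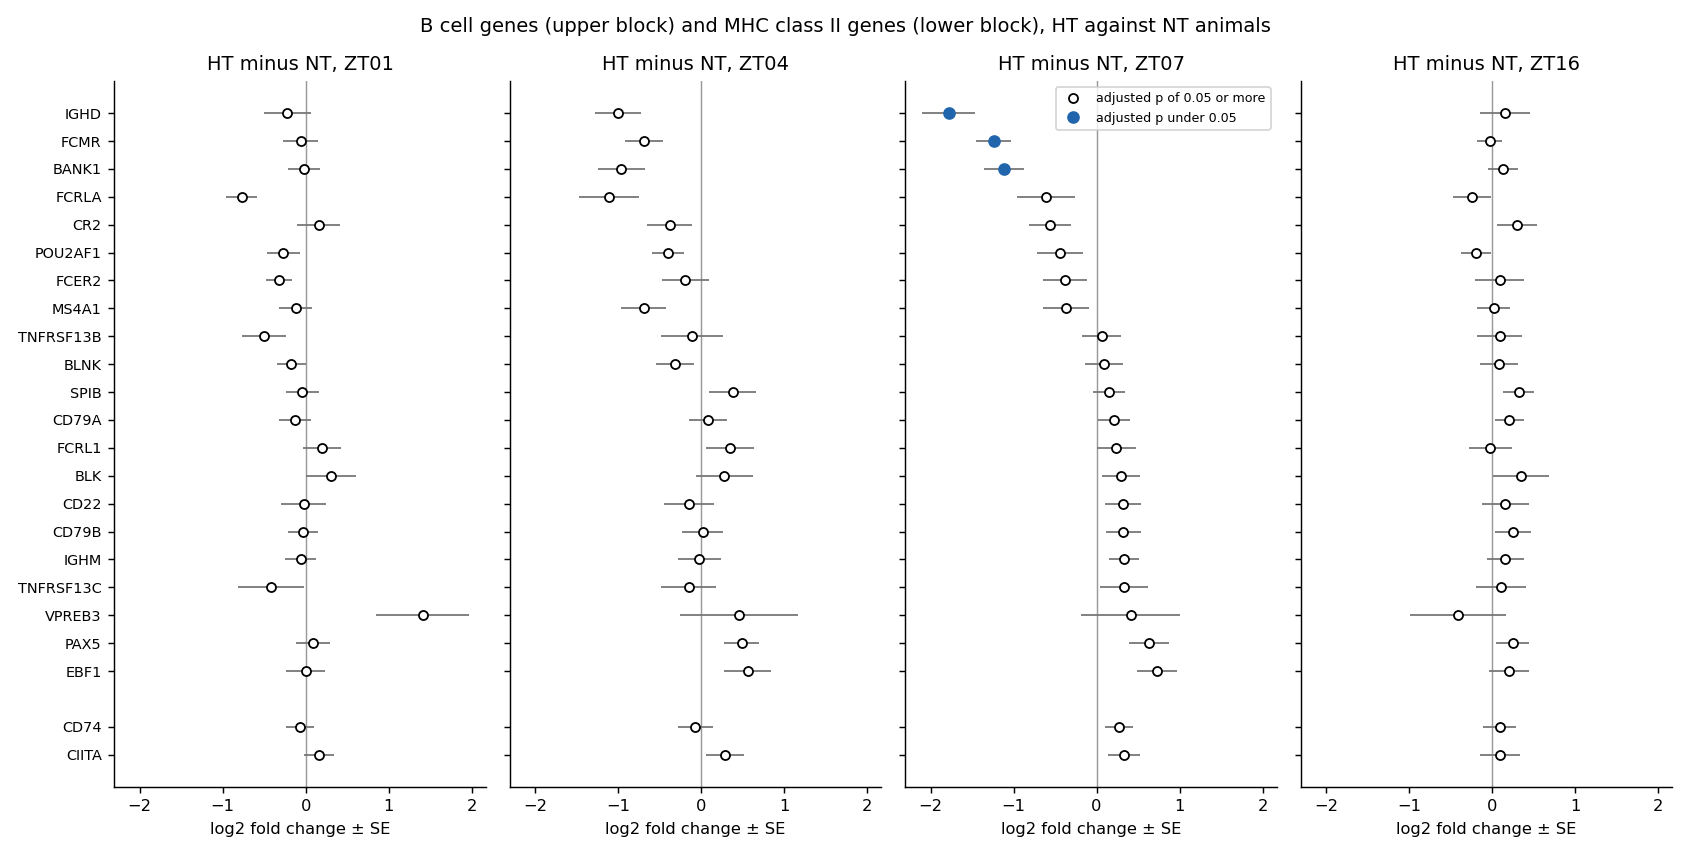
Log2 fold change of HT over NT animals (x axis, with its SE) for the 23 genes with a count (y axis), B cell genes above and MHC class II genes below, at 4 zeitgeber times. Filled points passed an adjusted p of 0.05, which only IGHD, FCMR and BANK1 at ZT07 did; the same 3 genes also had negative values at ZT04 and lay between -0.22 and 0.16 at ZT01 and ZT16.

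A ratio of 2 genes within a library does not depend on the scaling of that library. The ratios below were chosen after the values were seen and are given with no test. Per 100 counts of IGHM, HT ZT07 animals had 0.907, 0.758, 1.67 and 0.582 counts of IGHD, against 4.83, 4.71, 3.02 and 5.09 in NT ZT07 animals. HT animals 1, 2 and 4 had the lowest values of the 41 libraries, and HT animal 3 came after an HT ZT04 animal at 1.57. HT ZT04 animals averaged 2.32 ± 0.777, against 4.81 ± 1.44 in NT ZT04 animals (SD, n = 5 and 4), with a small overlap.

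At the other times the IGHD to IGHM ratio was 3.73 ± 1.38 in HT ZT01 against 4.32 ± 0.878 in NT ZT01 animals, and 3.87 ± 1.13 in HT ZT16 against 3.77 ± 0.669 in NT ZT16 animals. Control animals had 4.31 ± 0.733. Because IgM and IgD are spliced from 1 primary transcript and share their variable region, how reads of shared contigs were divided between both symbols is not known here.

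FCMR counts per 100 of CD79A averaged 18.3 ± 3.66 in HT ZT07 against 53.2 ± 13.8 in NT ZT07 animals, and 29.9 ± 7.36 in HT ZT04 against 49.7 ± 7.54 in NT ZT04 animals. BANK1 counts per 100 of CD79A averaged 5.89 ± 1.19 in HT ZT07 against 15.7 ± 5.76 in NT ZT07 animals, and 7.24 ± 2.36 in HT ZT04 against 14.8 ± 3.85 in NT ZT04 animals. CD79B per 100 of CD79A, by contrast, was 62.3 ± 7.94 in HT ZT07 against 58.3 ± 5.66 in NT ZT07 animals, and its group means spanned 53.6 to 62.3 over all 9 groups.

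**Figure D3:**
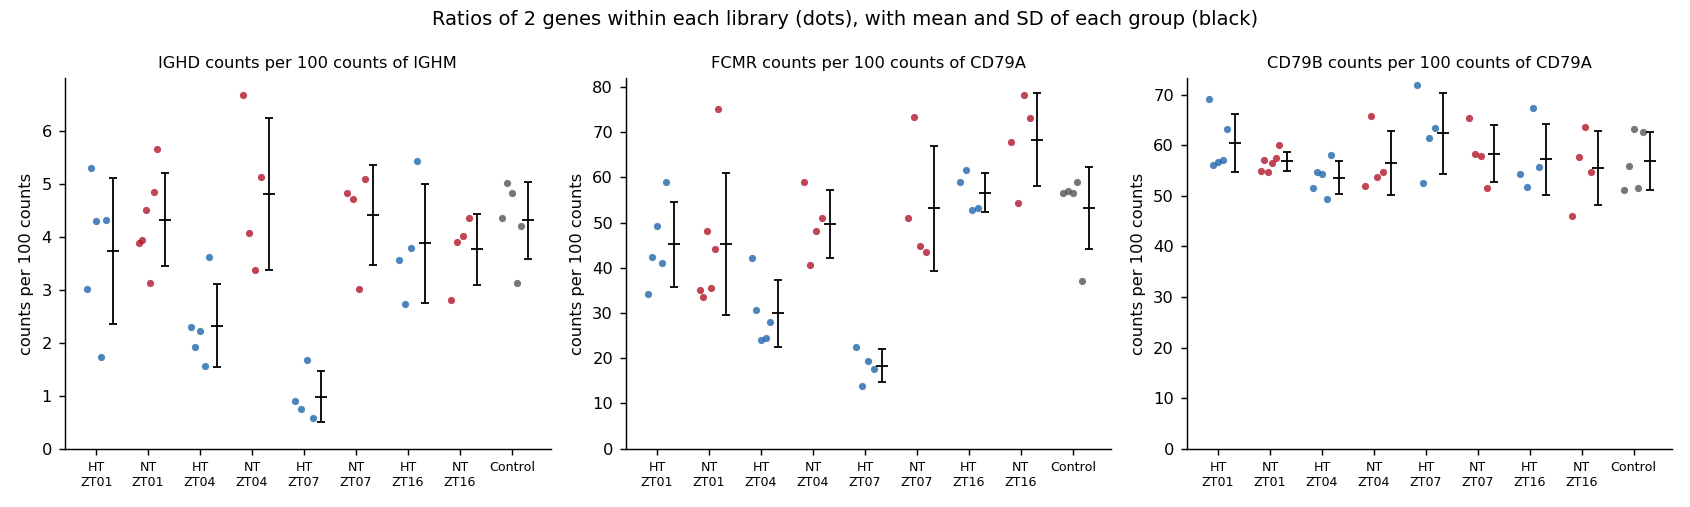
Counts of one gene per 100 counts of another within each library (y axis) in the 9 groups (x axis, HT left of NT). Dots are animals and black marks are the mean with its SD; IGHD per IGHM and FCMR per CD79A had their lowest means in HT ZT07 animals, and CD79B per CD79A had group means between 53.6 and 62.3.

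At ZT04 the log2 fold changes of the same 3 genes were also negative, but no member passed the threshold with edgeR, where 0.447% of the 10505 genes tested did. Of the 23 members, 6 had an unadjusted p under 0.05, beside 15.2% of all genes. FCMR stood at 11.9, 17.9, 12.2, 7.96 and 14.3 CPM in HT ZT04 animals, against 21.7, 15.7, 24.0 and 20.5 CPM in NT ZT04 animals. The single overlap was between HT animal 2 and NT animal 2, and the value was -0.69 ± 0.23 (edgeR adjusted p = 0.167). NT ZT04 animal 2 had the fewest counts outside haemoglobin of the 41 libraries (3291472).

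IGHD had 2.91, 4.39, 3.86, 1.82 and 6.01 CPM in HT ZT04 animals, against 9.36, 5.51, 7.69 and 7.51 CPM in NT ZT04 animals. The value was -1.0 ± 0.28 (edgeR adjusted p = 0.122). HT animal 5 lay above NT animal 2, and the call was made with DESeq2 (adjusted p = 0.0428). BANK1 had 2.69, 3.17, 5.03, 1.51 and 3.43 CPM in HT ZT04 animals, against 7.19, 3.96, 6.92 and 6.24 CPM in NT ZT04 animals, with an overlap of HT animal 3 and NT animal 2, and its value was -0.96 ± 0.28 (edgeR adjusted p = 0.134). FCRLA had -1.11 ± 0.36 (0.164). BANK1 (adjusted p = 0.027) and FCRLA (0.0398) passed when the contrast was taken from the edgeR fit of all 36 animals, in which 557 genes passed in place of 47. That fit had no term for sex, and NT ZT04 animals were all male while 3 of 5 HT ZT04 animals were female. HT ZT04 animal 4, a female, had the lowest BANK1 (1.51 CPM) and FCRLA (0.684 CPM) of the 41 libraries.

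CD79A had 28.3, 58.1, 50.8, 32.4 and 51.1 CPM in HT ZT04 animals, against 36.8, 38.7, 49.998 and 40.2 CPM in NT ZT04 animals. The HT animals lay on both sides of the NT range, and the value was 0.08 (95% interval -0.38 to 0.54). MS4A1 had 9.08, 17.7, 15.99, 6.79 and 10.9 CPM in HT ZT04 animals, against 22.0, 12.9, 21.8 and 20.5 CPM in NT ZT04 animals (-0.69 ± 0.27, edgeR adjusted p = 0.251). NT animal 2 was the only NT animal within the HT range.

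PAX5 had 11.4, 14.6, 16.4, 8.21 and 14.3 CPM in HT ZT04 animals, against 9.17, 7.76, 9.46 and 10.2 CPM in NT ZT04 animals (0.49 ± 0.21, edgeR adjusted p = 0.282). CD74 had 203, 285, 224, 197 and 268 CPM in HT ZT04 animals, against 216, 248, 265 and 248 CPM in NT ZT04 animals (-0.07 ± 0.21, 0.925). CIITA had 14.0, 19.8, 19.8, 10.4 and 19.1 CPM in HT ZT04 animals, against 11.1, 11.5, 17.6 and 13.6 CPM in NT ZT04 animals (0.29 ± 0.23, 0.607). For PAX5 4 of 5 HT animals exceeded every NT animal, and for CD74 and CIITA the groups overlapped. The median over the B cell genes was -0.147 (8 above 0 and 13 below), beside -0.006 over all genes.

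At torpor entry no member passed. At ZT01 0% of the 10509 genes tested passed with edgeR, and 2 of the 23 members had an unadjusted p under 0.05, beside 7.68% of all genes. DESeq2 called no member either. The lowest p values belonged to FCRLA (-0.77 ± 0.19, edgeR adjusted p = 0.561), VPREB3 (1.41 ± 0.56, 0.642) and FCER2 (-0.32 ± 0.16, 0.656). CIITA had 0.16 ± 0.18 (0.836) and CD74 -0.07 ± 0.17 (0.926).

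FCMR at ZT01 had 14.6, 19.4, 27.2, 14.8 and 24.4 CPM in HT animals, against 14.5 to 31.1 CPM (median 20.0) in NT animals. IGHD had 5.42, 9.25, 9.32, 2.51 and 7.25 CPM in HT animals, against 5.78 to 11.9 CPM (median 6.77) in NT animals. BANK1 had 3.84, 5.81, 6.52, 4.59 and 7.49 CPM in HT animals, against 4.31 to 8.18 CPM (median 5.56) in NT animals. The groups overlapped in all 3 genes, with log2 fold changes of -0.06 for FCMR, -0.22 for IGHD and -0.02 for BANK1.

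The marker genes overlapped at ZT01 as well. CD79A had 42.6, 45.9, 55.3, 36.0 and 41.5 CPM in HT animals, against 28.2 to 64.7 CPM (median 50.1) in NT animals. MS4A1 had 15.6, 14.8, 18.2, 10.5 and 17.3 CPM in HT animals, against 12.1 to 26.2 CPM (median 15.1) in NT animals. PAX5 had 13.95, 9.47, 12.3, 8.79 and 6.76 CPM in HT animals, against 7.16 to 14.7 CPM (median 8.88) in NT animals. In each of these genes NT animal 3 was the highest NT animal, and it lay above every HT animal. CD74 had 259, 266, 278, 207 and 229 CPM in HT animals, against 185 to 343 CPM (median 258) in NT animals. CIITA had 18.5, 12.996, 22.1, 14.0 and 15.4 CPM in HT animals, against 10.96 to 21.4 CPM (median 14.0) in NT animals. Neither gene separated the groups.

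After torpor the levels of the 3 genes overlapped between HT and NT animals. All HT ZT16 animals were labelled female and all NT ZT16 animals male, so sex and torpor cannot be told apart here. At ZT16 no member passed with edgeR (0.0187% of the 10705 genes tested did) or with DESeq2, and no member had an unadjusted p under 0.05, beside 7.18% of all genes. FCMR had 26.2, 23.9, 25.1 and 23.8 CPM in HT ZT16 animals, against 19.9, 27.8, 24.0 and 29.8 CPM in NT ZT16 animals, and its log2 fold change was -0.03 (95% interval -0.32 to 0.26).

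IGHD had 6.20, 4.00, 7.77 and 8.63 CPM in HT ZT16 animals, against 2.85, 8.45, 5.39 and 7.08 CPM in NT ZT16 animals. BANK1 had 7.45, 6.92, 9.31 and 6.603 CPM in HT ZT16 animals, against 5.33, 9.38, 6.65 and 6.25 CPM in NT ZT16 animals. Both genes overlapped between the groups, with 0.16 (-0.43 to 0.74) for IGHD and 0.13 (-0.23 to 0.50) for BANK1. The lowest p values at ZT16 were those of SPIB (0.32 ± 0.19, edgeR adjusted p = 0.784), CR2 (0.30 ± 0.24, 0.858) and PAX5 (0.25 ± 0.20, 0.858).

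CD79A had 44.4, 38.8, 47.6 and 44.8 CPM in HT ZT16 animals, against 29.3, 51.3, 30.7 and 40.7 CPM in NT ZT16 animals. MS4A1 had 19.9, 18.7, 24.4 and 15.9 CPM in HT ZT16 animals, against 13.7, 25.6, 20.3 and 18.5 CPM in NT ZT16 animals. PAX5 had 10.01, 9.70, 14.7 and 11.8 CPM in HT ZT16 animals, against 7.15, 13.2, 10.03 and 8.49 CPM in NT ZT16 animals. NT animal 1 was the lowest of its group in all 3 genes. CD74 had 240, 185, 293 and 267 CPM in HT ZT16 animals, against 182, 306, 217 and 218 CPM in NT ZT16 animals (0.09 ± 0.20, edgeR adjusted p = 0.957). CIITA had 15.8, 12.3, 17.8 and 19.9 CPM in HT ZT16 animals, against 8.59, 21.6, 15.3 and 15.7 CPM in NT ZT16 animals (0.10 ± 0.24, 0.963). Both overlapped, and both values turn negative without NT animal 1.

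Across the 4 times, the HT groups differed in the same 3 genes. The HT animals are those of the comparisons above, so this is not a separate sample. In the edgeR fit of 36 animals 10.8% of the 11471 genes tested changed between HT groups, and 3 of 23 members did, again near the background. An unadjusted p under 0.05 was reached by 8 members, beside 24.8% of all genes. This fit had no term for sex. Labelled males and females among HT animals numbered 2 and 3 at ZT01 and at ZT04, 1 and 3 at ZT07, and 0 and 4 at ZT16. Time and sex are thus partly mixed in the test across HT groups. FCMR (adjusted p = 0.000784) stood at -0.65 at ZT04, -0.95 at ZT07 and 0.28 at ZT16 on the log2 scale relative to HT ZT01. BANK1 (0.00169) stood at -0.83, -0.75 and 0.40 at those times, and IGHD (0.0046) at -0.83, -1.65 and -0.05. Without HT ZT07 animals 1 and 2 the adjusted p was 0.0072 for FCMR, 0.0122 for BANK1 and 0.0829 for IGHD, which then no longer passed. CD74 (0.168) and CIITA (0.731) did not pass.

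Markers of other cells changed over the HT groups too, in the same fit without a term for sex. Of 10 NK and cytotoxic markers 6 passed with edgeR (TBX21, KLRD1, NCR1, PRF1, EOMES and NKG7), beside 10.8% of all genes, and their summed level had medians of 75.8 CPM at ZT01, 36.7 CPM at ZT04, 44.0 CPM at ZT07 and 111 CPM at ZT16 in HT animals. The sum was thus low at the times at which FCMR, BANK1 and IGHD were low. ZBTB46 and ITGAX passed of 9 tested dendritic cell markers, CD5 of 15 T cell markers, FPR1 and CAMP of 12 tested neutrophil markers and GP9 of 8 platelet markers. Of 12 monocyte markers 0 passed with edgeR (4 at an unadjusted p under 0.05). The part of these cells in the change of the 3 genes was not tested.

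The NT groups gave no such result. No member passed over the 4 NT groups, no member had an unadjusted p under 0.05 (5.67% of all genes did), and 0% of genes passed with edgeR. The lowest adjusted p values were 0.883 for SPIB, 0.915 for FCER2 and 0.918 for BLK, with 0.974 for CD74 and 0.996 for CIITA.

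Whether the HT to NT difference itself depended on time was tested as an interaction of torpor and time, which 1.13% of genes passed. No member did with edgeR, and 3 had an unadjusted p under 0.05, beside 14.3% of all genes. The adjusted p was 0.065 for FCMR, 0.0862 for BANK1, 0.0926 for IGHD, 0.813 for CD74 and 0.968 for CIITA. A dependence of the difference on time was therefore not shown for any of them with all animals. Leaving out 1 animal gave a call in some fits, for FCMR without HT ZT01 animal 1 (edgeR adjusted p = 0.0443), HT ZT04 animal 2 (0.0488) or NT ZT01 animal 3 (0.0347), for BANK1 without HT ZT04 animal 3 (0.0442) or HT ZT07 animal 3 (0.0399), and for IGHD without HT ZT01 animal 4 (0.0444) or HT ZT07 animal 3 (0.0303). Without HT ZT07 animals 1 and 2 the adjusted p was 0.234 for FCMR, 0.278 for BANK1 and 0.357 for IGHD.

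Control animals were set against the mean of the 4 NT groups. No member passed with edgeR, where 2.15% of the 11636 genes tested did, nor with DESeq2. A single member, EBF1, had an unadjusted p under 0.05, beside 9.71% of all genes. EBF1 had 2.51, 2.64, 2.67, 2.59 and 2.93 CPM in Control animals, with -0.59 ± 0.21 on the log2 scale (edgeR adjusted p = 0.193). FCER2 had 0.38 ± 0.20 (0.561), CR2 0.37 ± 0.20 (0.608), CD74 -0.11 ± 0.13 (0.885) and CIITA 0.06 ± 0.17 (0.955).

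The Control values of the 3 genes that fell at ZT07 lay within the spread of the NT animals. FCMR had 23.4, 26.2, 24.9, 24.6 and 16.9 CPM in Control animals, IGHD 6.59, 8.03, 7.85, 4.66 and 7.18 CPM, and BANK1 7.28, 7.45, 8.46, 7.65 and 7.66 CPM. CD79A had 41.5, 45.9, 44.1, 41.7 and 45.4 CPM in Control animals, MS4A1 17.7, 22.6, 20.0, 17.6 and 16.4 CPM, and PAX5 11.9, 10.6, 10.2, 7.41 and 5.16 CPM. CD74 had 203, 252, 250, 233 and 220 CPM in Control animals, and CIITA 13.2, 17.7, 16.7, 11.8 and 18.2 CPM. Control animals carry neither a time nor a sex label, so neither time nor sex can be told apart from group here.

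Members also differed in how closely they followed CD79A from animal to animal. Over the 41 libraries, CD79B had Pearson's r of 0.93 with CD79A (Spearman's rho 0.91), IGHM 0.91 (0.89) and CD74 0.87 (0.89). Each reached an adjusted permutation p of 3.14e-05 for r and 4.4e-05 for rho over the 22 relations computed (raw p = 1e-05, the smallest that 100000 permutations can give), and r was 0.91, 0.91 and 0.86 without the 2 animals farthest from the median of CD79A. Within groups, after the group means were removed, r was 0.92 for CD79B, 0.91 for IGHM and 0.86 for CD74.

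For IGHD r was 0.17 over all libraries (rho 0.19, adjusted permutation p = 0.343 for r and 0.305 for rho), for BANK1 0.11 (0.03, 0.543 and 0.906) and for FCMR 0.05 (0.09, 0.789 and 0.652). Without the 2 farthest animals these were 0.14, 0.01 and -0.01. With the group means removed they were 0.62, 0.50 and 0.53. A low r was not particular to these 3 genes. Over all libraries it was 0.04 for VPREB3, 0.20 for CR2, 0.22 for POU2AF1 and 0.25 for TNFRSF13B. With the group means removed, these 4 had 0.05, 0.48, 0.48 and 0.21. The members not named here lay between 0.31 (FCRLA) and 0.76 (CD22) over all libraries. IGHD, BANK1 and FCMR fell at ZT07 where CD79A did not, so their low r is not a separate result. The points share their library's depth and scaling. All 4 HT ZT07 animals lay above the median of CD79A over the 41 libraries (44.8 CPM) and below those of IGHD (6.59 CPM) and FCMR (21.7 CPM).

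**Figure D4:**
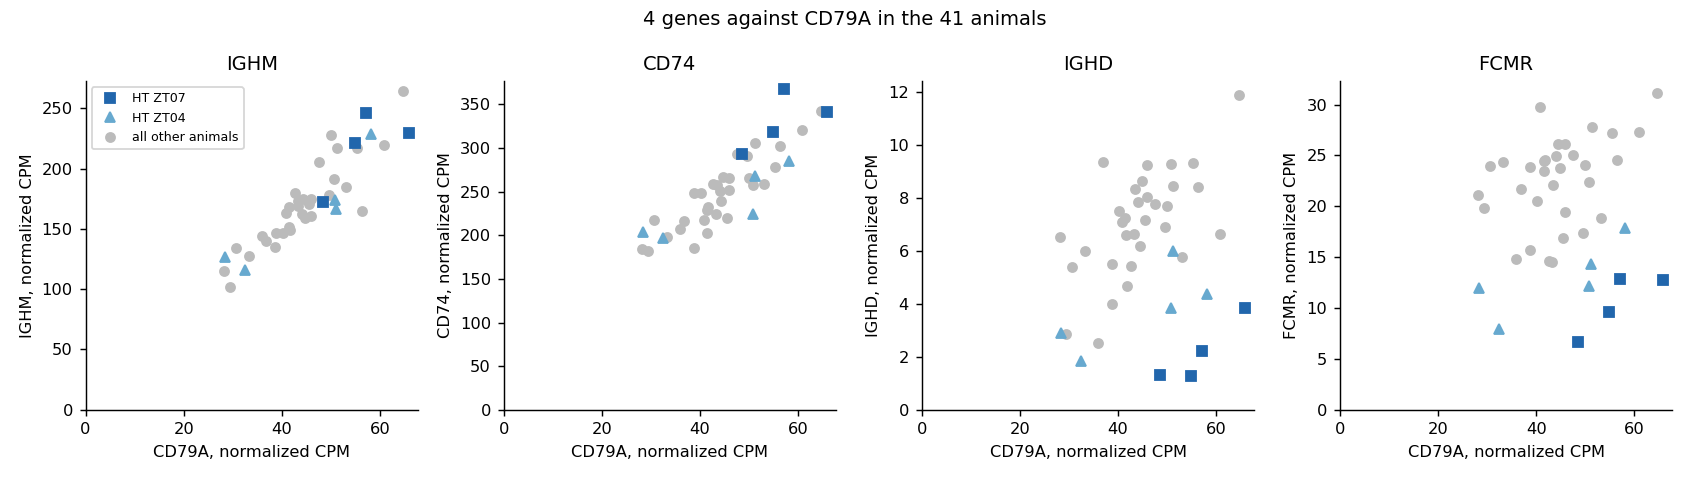
Normalized CPM of IGHM, CD74, IGHD and FCMR (y axes) against CD79A (x axes) in the 41 animals, with HT ZT07 animals as dark squares, HT ZT04 animals as light triangles and all other animals as grey dots. IGHM and CD74 rise with CD79A in 1 band that holds HT ZT07 animals too (r = 0.91 and 0.87), whereas in IGHD and FCMR the HT ZT07 animals lie at the lower edge (r = 0.17 and 0.05).

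Genes that work with the members were read from 4 further lists. Their counts at ZT07 are to be set beside the 10.4% of all genes that passed there, and what follows is on single genes and not on the lists. In B cell receptor signalling 2 of 18 tested genes passed, near that share, both as higher in HT animals. DAPP1, an adaptor downstream of PI3-kinase, averaged 7.39 ± 0.434 CPM in HT ZT07 and 4.86 ± 0.542 CPM in NT ZT07 animals (0.59 ± 0.14 SE, edgeR adjusted p = 0.0226). MALT1, a protease of the pathway to NF-κB, averaged 14.5 ± 1.74 CPM in HT ZT07 and 9.23 ± 1.14 CPM in NT ZT07 animals (0.63 ± 0.15, 0.0243).

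The list of development, germinal centre and plasma cell genes held 27, of which 6 were at 0 in all libraries. Of its 18 tested genes 1 passed (10.4% of all genes did), BACH2, a repressor that holds back plasma cell fate. It averaged 2.56 ± 0.32 CPM in HT ZT07 and 1.34 ± 0.245 CPM in NT ZT07 animals (0.91 ± 0.19, edgeR adjusted p = 0.0155). In homing and survival 3 of 15 passed, beside the same 10.4%. ICOSLG, the ligand of the T cell costimulator ICOS, was higher, at 5.11 ± 0.873 CPM in HT ZT07 and 2.79 ± 0.232 CPM in NT ZT07 animals (0.86 ± 0.16, 0.0118).

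Of the homing receptors that passed, GPR183, which guides B cells along oxysterols, was lower, at 3.25 ± 0.557 CPM in HT ZT07 and 5.78 ± 0.987 CPM in NT ZT07 animals (-0.85 ± 0.18, edgeR adjusted p = 0.0155). CCR7, the lymph node homing receptor, was also lower, at 15.5 ± 4.58 CPM in HT ZT07 and 31.3 ± 7.51 CPM in NT ZT07 animals (-1.03 ± 0.24, 0.023). Both are used by T cells too. No MHC class II partner passed (0 of 15 tested with edgeR, 5 at an unadjusted p under 0.05). Their list held 21 genes, of which 6 were at 0 in all libraries. The promoter factor NFYA had -0.64 ± 0.19 and the protease CTSL -1.20 ± 0.36 (edgeR adjusted p = 0.0546 each).

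With each ZT07 animal left out in turn, BACH2 and ICOSLG passed in all 8 fits. GPR183 did not pass without HT animal 2 (adjusted p = 0.051). CCR7 lost its call in 4 of 8 fits (without HT animal 1 or 2, or NT animal 2 or 3; at most 0.0612), DAPP1 in 3 (without HT animal 2 or NT animal 2 or 3; at most 0.0602) and MALT1 in 3 (without HT animal 2 or 3, or NT animal 2; at most 0.0708). Without HT animals 1 and 2 together none of the 6 passed, ICOSLG being nearest (1.02, edgeR adjusted p = 0.0504).

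At ZT04 none of the 65 genes tested in these lists passed with edgeR. The lowest p values were those of CCR7 (-1.0 ± 0.26, adjusted p = 0.0911) and GPR183 (-0.65 ± 0.17, 0.103), of CD38 (-0.95 ± 0.25, 0.103) and IGLL1 (-0.72 ± 0.31, 0.292), of the kinase BTK (-0.56 ± 0.20, 0.202) and the phosphatase PTPN6 (0.41 ± 0.18, 0.305), and of the partners MARCH8 (-0.74 ± 0.33, 0.315) and NFYA (-0.40 ± 0.20, 0.36). At ZT01 they were those of LYN (0.48 ± 0.17, 0.642) and PTPN6 (0.36 ± 0.18, 0.666), BCL6 (0.51 ± 0.19, 0.642) and IGLL1 (-0.47 ± 0.22, 0.652), CD86 (0.70 ± 0.30, 0.642) and CCR7 (-0.33 ± 0.21, 0.705), and IFI30 (-0.66 ± 0.31, 0.643) and NFYB (-0.28 ± 0.17, 0.705). At ZT16 they were those of PIK3CD (0.23 ± 0.14, 0.793) and LYN (-0.30 ± 0.19, 0.813), IGHG1 (0.72 ± 0.27, 0.609) and PRDM1 (-0.95 ± 0.46, 0.711), CXCR4 (-0.56 ± 0.18, 0.527) and LTB (0.28 ± 0.14, 0.714), and CTSB (-0.53 ± 0.19, 0.558) and CTSL (0.60 ± 0.28, 0.69). No gene of the 4 lists passed at ZT01 or ZT16.

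Over the 4 HT groups, where 10.8% of all genes passed, 3 of 15 MHC class II partners, 4 of 18 signalling, 2 of 18 development and 3 of 15 homing and survival genes did. Here too the fit had no term for sex, and the HT groups differed in sex. The homing receptors GPR183 (edgeR adjusted p = 0.00187) and CCR7 (0.00397) stood at -0.46 and -0.57 at ZT04, -0.43 and -0.37 at ZT07, and 0.50 and 0.67 at ZT16, on the log2 scale relative to HT ZT01. CXCR4, the bone marrow homing receptor, stood at -0.17, 1.12 and 0.29 (0.0018), and NFYA at -0.12, -0.46 and 0.45 (0.00323). These 4 passed with each HT animal left out in turn and without HT ZT07 animals 1 and 2.

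Also past the threshold were the proteases CTSL (0.0138) and CTSB (0.0196), the receptor-proximal kinase LYN (0.0193), DAPP1 (0.0228) and MALT1 (0.0494), and the germinal centre and plasma cell repressors BACH2 (0.0465) and BCL6 (0.0484). The call was lost without HT ZT16 animal 1 for CTSL (edgeR adjusted p = 0.0784), without HT ZT16 animal 2 or 4 for CTSB (at most 0.134) and LYN (at most 0.149), and without HT ZT07 animal 2 or 3 for DAPP1 (at most 0.0918). MALT1 lost it in 14, BACH2 in 15 and BCL6 in 13 of the 18 fits that left out an HT animal. Without HT ZT07 animals 1 and 2, CTSB (0.0535), DAPP1 (0.131), MALT1 (0.15), BACH2 (0.115) and BCL6 (0.0793) did not pass.

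No gene of the 4 lists passed across the NT groups or for the interaction with edgeR. Lowest across NT groups were CXCR4 (adjusted p = 0.809) and the costimulator CD86 (0.85), NFYB (0.868) and IFI30 (0.911), PRKCB (0.883), and IGHG1 (0.868) and PRDM1 (0.872). Lowest for the interaction were GPR183 (0.0949) and CXCR4 (0.127), CD38 (0.151) and BACH2 (0.358), CTSL (0.177) and NFYC (0.244), and DAPP1 (0.219) and LYN (0.365).

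Control animals differed from NT animals in 1 gene of the lists, the promoter factor NFYB, with 2.97 ± 0.362 CPM in Control animals (0.46 ± 0.13, adjusted p = 0.0379), a call lost in 7 of 23 fits (without Control animal 2, 4 or 5, NT ZT04 animal 3, NT ZT07 animal 4, or NT ZT16 animal 2 or 3; at most 0.169). In the other lists the lowest p values were those of VAV1 (0.31 ± 0.10, 0.123) and MALT1 (-0.27 ± 0.10, 0.233), CD38 (0.32 ± 0.16, 0.52) and PRDM1 (-0.64 ± 0.42, 0.694), and the survival factor TNFSF13B (-1.35 ± 0.48, 0.206) and CXCR4 (-0.27 ± 0.19, 0.736).

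Markers of other blood cells moved as well at ZT07, where 10.4% of all genes passed and 4.65% as lower. Of 10 NK and cytotoxic markers 3 were lower in HT animals (KLRD1, TBX21 and NCR1), and their summed level was 34.3 to 64.9 CPM in HT ZT07 and 35.2 to 93.9 CPM in NT ZT07 animals. Of 15 T cell markers THEMIS was lower, with a sum of 125 to 198 CPM in HT ZT07 and 155 to 226 CPM in NT ZT07 animals. Of 12 monocyte markers CX3CR1 was lower (190 to 307 and 148 to 300 CPM), of 8 tested dendritic cell markers ZBTB46 was lower (85.9 to 138 and 57.7 to 110 CPM), and of 11 tested neutrophil markers MMP9 and LTF were higher (31.8 to 61.4 and 25.8 to 41.8 CPM), each pair of ranges being HT ZT07 and then NT ZT07 animals. Of the platelet markers 0 of 8 passed with edgeR (2 at an unadjusted p under 0.05), and SLC4A1 among 9 tested erythroid and HBE1 among 6 tested haemoglobin genes were lower. At ZT04, where 0.447% of all genes passed, 2 of 10 NK markers were lower and no marker of the other lists passed. All 10 NK markers had negative values there. With edgeR, 8 of them had an unadjusted p under 0.05, beside 15.2% of all genes. None of the monocyte, dendritic cell, T cell, NK or neutrophil markers in the table was at 0 in all libraries. The summed level of the B cell genes was 336 to 502 CPM in HT ZT07 and 304 to 485 CPM in NT ZT07 animals, and that of CD74 and CIITA 311 to 388 CPM in HT ZT07 and 212 to 339 CPM in NT ZT07 animals. The part of other cell types in the results was not tested.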

How the data were processed

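RNA of blood pellets from 41 hamsters was sequenced. From trimmed reads of all libraries the authors built a transcriptome without a genome, gave each contig the symbol of its best human protein match, and counted aligned reads. The deposited values are raw counts per symbol, not normalized, and the strand used in counting is not given in the sources used here. Of the counts from 1 to 49, 67.45% were even. Contigs that share a symbol cannot be told apart, and transcript lengths and sequences were not used here.

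HT and NT animals of each time were compared by the quasi-likelihood test of edgeR 4.0.16 (R 4.3.3) after TMM scaling and filterByExpr, with a minimum count of 10 and a minimum total of 15. The SE came from the F statistic, and p values were adjusted after Benjamini and Hochberg over all genes tested, with a threshold of 0.05. The 95% intervals used this SE with a normal quantile, so in groups this small they are narrower than the test itself allows. Tests across time and of the interaction used 1 fit of 36 animals, and the Control group was added in a fit of 41. Correlations used log2(CPM + 0.1). The code was tested on simulated data. As alternatives, DESeq2 1.42.0, RLE size factors, unfiltered genes, counts without haemoglobin, the fit of 36, a replicate block, a sex covariate and the omission of each animal were run. Leaving out HT ZT07 animals 1 and 2 was chosen after seeing the data. Plots were made in matplotlib 3.10.9 (Python 3.11.15).

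The members and lists were chosen with earlier results of these data known. Each comparison names every member past the threshold and the 3 of lowest p in each list, and from the 4 further lists every gene past the threshold or else the 2 of lowest p. A gene of these further lists that this rule would name is not reported here. No 2 replicates were copies of 1 library (smallest chi-square per degree of freedom 15.4 over 75 pairs).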

Additional observations from a re-analysis of the deposited data

Results flagged for a closer look

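Over 207 pairs of a gene and a group, 14 held an animal that stood apart from its group by Dixon's test at 95%, where chance gives about 1 in 20. Values are in normalized CPM. In HT groups, BANK1 was 5.05 (others 2.64 to 2.99) and CR2 9.83 (others 5.16 to 5.58) in HT ZT07 animal 3, BLK was 1.90 (others 1.13 to 1.18) and TNFRSF13C 1.39 (others 0.763 to 0.842) in HT ZT16 animal 3, and CD22 was 8.35 (others 16.3 to 17.7) in HT ZT01 animal 4.

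In NT groups, MS4A1 was 26.2 (others 12.1 to 17.1) and PAX5 14.7 (others 7.16 to 9.59) in NT ZT01 animal 3. At ZT04 MS4A1 was 12.9 (others 20.5 to 22.0) in NT animal 2, SPIB 1.73 (others 3.18 to 3.37) in NT animal 1 and IGHM 228 (others 135 to 147) in NT animal 3. FCRLA was 1.68 (others 3.26 to 3.30) in NT ZT07 animal 2 and 5.94 (others 2.97 to 3.31) in NT ZT16 animal 2, and CR2 was 13.2 (others 7.63 to 8.48) in NT ZT07 animal 3. In the Control group BLNK was 10.1 (others 6.19 to 6.94) in animal 5.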

How the results depend on the processing

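At ZT04 the number of members past the threshold was 0 with edgeR, 1 with DESeq2 and 2 in the fit of 36 animals, where all genes numbered 47, 426 and 557 (9 with the replicate block, 1 with sex). At ZT07 it was 3, and 5 with the replicate block (CR2 and EBF1 added), 4 with DESeq2 and 0 without HT ZT07 animals 1 and 2, a fit with 2 HT animals. With an animal left out it ran from 2 to 4 at ZT07, 0 to 2 for the interaction (FCMR, BANK1 or IGHD) and 3 to 5 across HT groups, where HT ZT07 animal 3 left out gave 5. The causes were not tested. The interaction called 130 genes in all, 78 without the filter and 65 with sex. All genes called numbered 0 at ZT01 (11 with DESeq2) and 2 at ZT16 (103 with DESeq2, 0 in the fit of 36).

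With an animal left out, uncalled values changed sign for CD74 at ZT01 (-0.14 to 0.04, the upper end without NT animal 3), at ZT04 (-0.13 to 0.01, the upper end without HT animal 4) and at ZT16 (-0.01 to 0.26, the lower end without NT animal 1), and for CIITA at ZT16 (-0.09 without NT animal 1). Correlations did not settle whether the replicate numbers pair the animals. After group means were removed, r within a number ran from -0.03 to 0.21 at ZT01 and -0.09 to 0.32 at ZT04. It ran from -0.06 to 0.21 at ZT07 and -0.20 to 0.13 at ZT16. Of the pairs, 2 of 5, 3 of 4, 2 of 4 and 1 of 4 were best with their own number at ZT01, ZT04, ZT07 and ZT16. With the block the members called were 0, 0, 5 and 0 at those times. No fit with sex was possible at ZT16.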
